A study of Homo sapiens with 20 samples.

Results

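The 8 genes described here were MCL1, BCL2L1, BCL2, BCL2A1, BAK1, BCL2L11, BID and BIK, all of the BCL2 family, out of 20033 protein-coding genes on hg38. Each locus was the GENCODE gene body with 10 kb on either side. A peak or super-enhancer (SE, a long stretch of stitched peaks ranked among the strongest of its library) was assigned to a gene when it overlapped that window. In 16 lists of acetylated histone H3 lysine 27 (H3K27ac), which marks promoters and enhancers in use, 374 peaks lay in the 8 windows, and 7 of the 8 genes had a peak in some library.

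The libraries came from the colorectal carcinoma line HCT-116, as wild type cells (WT) or as FBXW7-/- cells (KO). The KO line was purchased, and the sources used here do not say whether it is 1 clone. FBXW7 is the substrate-binding part of a ubiquitin ligase. All cells were transfected for 48 h with endoribonuclease-prepared siRNA, either a control (esiCT) or one against HDAC4, a class IIa histone deacetylase (esiHDAC4). They were left untreated (UNT) or given 50 µM oxaliplatin (OXPT), a platinum drug that crosslinks DNA, for the last 24 h. The 8 combinations had 2 libraries each, lettered A and B. The labels describe a pooling of independent experiments, so p-values measure only the spread between these libraries. A peak in the acetylation lists does not check the FBXW7 deletion or the silencing of HDAC4.

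Proteins of the BCL2 family decide whether the outer mitochondrial membrane is opened during apoptosis. MCL1, BCL-XL (from BCL2L1), BCL2 and BFL1 (from BCL2A1) hold cells alive by binding the other members. BAK (from BAK1) forms the pores. BIM (from BCL2L11), BID and BIK are BH3-only proteins, which free or activate the pore formers. MCL1 protein is a known substrate of FBXW7, a step that acts on the protein and is not read by a histone mark.

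The lists differed in length, which bears on every call. They held 1752 to 27927 peaks, with 10562 to 27927 in the 8 WT lists and 1752 to 21875 in the 8 KO lists. Within KO the short lists were those of letter B, at 1752 to 8216 peaks, against 12639 to 21875 in letter A. The letter block of the fits does not take up a difference that lies in 1 letter of 1 genotype. The lowest local background, a guide to depth, was 1.65 to 3.07 reads in WT and 1.02 to 2.89 reads in KO libraries. In KO it was 1.52 to 2.89 reads in letter A and 1.02 to 1.51 in letter B. The shortest list, KO esiHDAC4 UNT replicate B, also had the lowest background. Among epithelial markers, KRT18 had a start-site peak in 16 libraries, KRT8 and EPCAM in 15, ELF3 in 10, CDH1 in 8 and VIL1 in 1. The start sites of PTPRC, CD79A, COL1A2, VWF and ALB, markers of other cell types, had none. Their whole windows, gene body with 10 kb on either side, held a peak in 14 libraries for CD79A, 10 for VWF and 2 for PTPRC, and in none for COL1A2 and ALB, so a window peak need not belong to the gene it is assigned to.

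Upstream sequence differed between these genes, and a distal element of MCL1, BIK and BAK1 is shown after the promoters. The promoters are RefSeq sequences of GRCh38.p14 and were matched for 6 of the 8 genes. They are printed 5′ to 3′ on the gene's strand, with motif matches in capitals, and leave out bases that exons of protein-coding transcripts cover. BAK1, BCL2L11 and BID are shown as loci whose start-site peak was called in some libraries only, and BCL2A1 as the locus with no peak.
BAK1, chr6:33580294-33580526, minus strand: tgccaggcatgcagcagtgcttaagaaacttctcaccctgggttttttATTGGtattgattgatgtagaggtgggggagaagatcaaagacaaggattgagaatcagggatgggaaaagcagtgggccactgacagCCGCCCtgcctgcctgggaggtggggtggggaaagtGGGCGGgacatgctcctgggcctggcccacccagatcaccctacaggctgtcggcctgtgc
BCL2L11, chr2:111120664-111120913, plus strand: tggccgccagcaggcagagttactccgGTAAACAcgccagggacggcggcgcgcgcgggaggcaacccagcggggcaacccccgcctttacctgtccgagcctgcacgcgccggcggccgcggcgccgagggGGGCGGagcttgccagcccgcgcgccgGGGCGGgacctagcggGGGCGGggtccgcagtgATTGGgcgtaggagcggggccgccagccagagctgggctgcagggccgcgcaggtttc
BID, chr22:17774496-17774639, minus strand: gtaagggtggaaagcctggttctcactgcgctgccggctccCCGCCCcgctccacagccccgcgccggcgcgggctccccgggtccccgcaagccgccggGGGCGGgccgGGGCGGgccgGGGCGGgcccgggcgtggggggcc
BCL2A1, chr15:79971197-79971446, minus strand: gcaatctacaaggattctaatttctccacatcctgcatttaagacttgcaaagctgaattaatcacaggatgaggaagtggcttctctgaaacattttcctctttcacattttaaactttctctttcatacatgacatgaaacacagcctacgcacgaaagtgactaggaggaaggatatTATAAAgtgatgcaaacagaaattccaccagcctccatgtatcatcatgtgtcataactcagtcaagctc
Within 250 bases before the start, BCL2L11 held 3 GC boxes with the letters GGGCGG. It also held a CCAAT box, and the FOXO letters GTAAACA lay 223 to 217 bases before the start. BID held 4 GC boxes, and BAK1 held 2 GC boxes and a CCAAT box. BCL2A1 held none of these but a TATA box (TATAAA) 70 to 65 bases before the start. Guanine and cytosine made up 76.8% of the BCL2L11 window, 72% of BID, 58% of BAK1 and 38.8% of BCL2A1, where the median of 35116 promoters was 58%. The windows of BCL2L1 (60.4%) and BCL2 (70%) held no match. Both strands were searched. Of all promoters 42.6% held a GC box, 32% a CCAAT box, 10.7% the TATA letters and 2.98% the FOXO letters. The AP-1 letters TGANTCA (6.57% of promoters), the CRE TGACGTCA (1.65%), the MEF2 letters CTAAAAATA (0.461%), the NF-kB letters GGGANTTCC (1.59%), the E-box CACGTG (6.34%), the ETS letters CCGGAAG (8.52%) and the p53 site (0.0171%) had no match in the 6 windows. The p53 site was searched at full length with no gap and no mismatch allowed. Only 6 of 35116 promoters held that form, so its lack of a match cannot show that p53 sites are absent.

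The distal stretches are the 200 bases around the highest summit of an acetylated element, read from the hg38 genome on the strand of the gene named.
MCL1 +17.6 kb element, chr1:150561753-150561952, minus strand: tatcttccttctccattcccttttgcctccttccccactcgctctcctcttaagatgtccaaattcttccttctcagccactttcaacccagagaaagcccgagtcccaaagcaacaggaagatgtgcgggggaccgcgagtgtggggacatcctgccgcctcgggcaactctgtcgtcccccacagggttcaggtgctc
BIK +15.9 kb element, chr22:43127894-43128093, plus strand: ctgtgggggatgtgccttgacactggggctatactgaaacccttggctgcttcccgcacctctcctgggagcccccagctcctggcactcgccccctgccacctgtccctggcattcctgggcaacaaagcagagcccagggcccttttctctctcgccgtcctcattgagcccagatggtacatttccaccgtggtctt
BAK1 -10.4 kb element, chr6:33590629-33590828, minus strand: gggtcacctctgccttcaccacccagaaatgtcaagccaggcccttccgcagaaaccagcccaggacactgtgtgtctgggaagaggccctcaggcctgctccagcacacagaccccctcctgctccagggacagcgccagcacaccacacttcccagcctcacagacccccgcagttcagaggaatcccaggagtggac
The stretch at MCL1 lies in exons of the long non-coding RNAs ADAMTSL4-AS1 and ENSG00000289457, inside the annotated MCL1 gene body. The BIK stretch lies in a BIK intron, and the stretch near BAK1 lies in LINC00336, outside its exons. None of the motifs was found in them.

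The survival genes ran from the most to the least acetylated loci of the family. BCL2L1 (ENSG00000171552, chr20:31664452-31723989, minus strand) had a peak in all 16 libraries and 246 peaks in total, 6 to 25 in each. Of all protein-coding loci, 2.42% had a peak in every library. Acetylation of BCL2L1 ran from its start site through about 30 kb of its intron. Overlapping peaks merged there into one interval of 33.9 kb, which held 211 of the 246 peaks. In 2 kb bins along the gene, the bin 26 to 28 kb into the gene held a summit in all 16 libraries, and the bins at 10 to 12 kb and 18 to 20 kb held one in 15. Some of this intron is repeated sequence, where short reads are placed less surely. Of 190 summits 2 to 34 kb into the gene, 31 (16.3%) lay in 200 bases of which at least 50% recurred elsewhere on the chromosome as words of 20 bases, against 1 of 23 within 2 kb of the start and 3 of 19 at the distal element of BIK. The part of this in the values was not tested. Recurrence on other chromosomes was not counted, and no intronic sequence of BCL2L1 is printed.

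Summit fold, the ratio of the pileup at a peak's summit to its local background, described the height of a locus by its highest peak. At BCL2L1 the highest summit fold in WT cells was 8.41 and 7.43 in esiCT UNT (replicates A and B), 9.5 and 5.95 in esiCT OXPT, 10 and 7.38 in esiHDAC4 UNT, and 8.96 and 6.15 in esiHDAC4 OXPT. In KO cells it was 7.05 and 6.48, 7.12 and 6.27, 6.51 and 5.57, and 6.75 and 8.23 in the same order. The genotypes overlapped, and replicate A was higher than B in 7 of the 8 groups. After centring on loci called in every library, the log2 difference of KO against WT was -0.12 ± 0.21 (standard error, 8 libraries against 8), with an adjusted p of 0.718 in limma. The same difference was -0.34 within letter A and 0.10 within letter B. Peak number was 115 in KO and 131 in WT libraries, with a median of 15 in both.

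**Figure D1:**
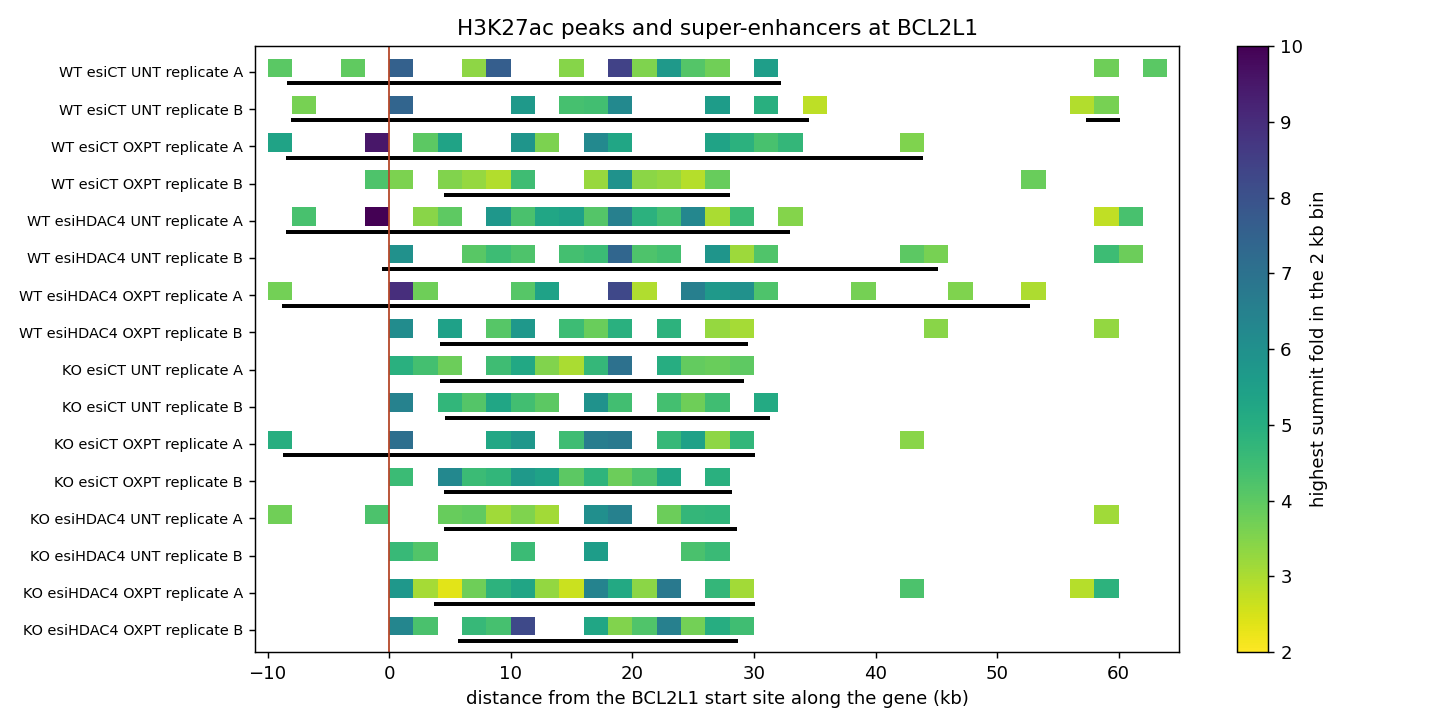
H3K27ac at BCL2L1 in each library, with distance from the canonical start site along the gene (kb) on the horizontal axis and the 16 libraries on the vertical axis. Coloured boxes are 2 kb bins that hold a summit, coloured by the highest summit fold, black bars are super-enhancers, and the vertical line is the start site. The bin at 26 to 28 kb is filled in all 16 libraries, and 15 libraries have a super-enhancer.

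An SE overlapped the BCL2L1 window in 8 of 8 WT and 7 of 8 KO libraries, and 58 protein-coding loci (0.29%) had an SE in 15 or more. The library without one was KO esiHDAC4 UNT replicate B, with 66 SEs in all. The longest SE at BCL2L1 spanned 23.5 to 61.4 kb in WT libraries, with a median of 42.1 kb, and 23 to 38.7 kb in KO libraries, with a median of 25 kb. The longest SE reached over the start site in 6 of 8 WT libraries and in 1 of 7 KO libraries, KO esiCT OXPT replicate A. A start-site peak itself was called in all 8 WT and all 8 KO libraries. In the other libraries with an SE, the longest one began 3.7 to 5.7 kb downstream of the start. These lengths were looked at after the values were seen and were not tested. The median SE of a library was 11.1 to 20 kb long in WT and 9.15 to 16.5 kb in KO libraries, and the part of list length in the difference was not tested. A peak upstream of BCL2L1, with a median summit at -8.2 kb, was called in 5 WT and 2 KO libraries, and one near the end of the gene at +58.7 kb likewise in 5 and 2. Of the SEs over the start, that of WT esiHDAC4 UNT replicate B ended at -0.6 kb. The others ended at -8.1 to -8.8 kb, where the upstream peak lay.

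MCL1 (ENSG00000143384, chr1:150560895-150579738, minus strand) had a peak in 15 of 16 libraries and 49 peaks in total. Its acetylation lay in 2 places, the start site and an element 17.6 kb downstream. The highest summit fold in WT was 6.51 and 6.97 in esiCT UNT, 5.16 and 3.66 in esiCT OXPT, 5.75 and 5.75 in esiHDAC4 UNT, and 4.74 and 5.77 in esiHDAC4 OXPT. In KO it was 5.39 and 5.32, 7.36 and 4.09, and 5.4 with no peak in replicate B, and 7.23 and 5.42. The groups overlapped, and the KO libraries held both the highest value and the library with no peak. The downstream element was called in 13 libraries, 7 WT and 6 KO, with folds of 3.07 to 7.36. It held the starts of ADAMTSL4-AS1 and ENSG00000289457 and lay beyond the end of the canonical MCL1 transcript, so its acetylation cannot be assigned to MCL1 alone. The window also holds a start of ADAMTSL4, near which 1 peak lay. The downstream element gave the highest summit of the locus in 9 libraries. The start-site element at +0.8 kb was called in all 8 WT and 5 KO libraries (2.57 to 6.97), and the one at -0.6 kb in 6 and 4.

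For MCL1 the log2 difference of KO against WT was -0.08 ± 0.24 (adjusted p = 0.839, limma). The sign of this small difference turned on the library without a peak, and it was 0.10 when that library was left missing. It was 0.27 within letter A and -0.43 within letter B. Peak number was 18 in KO and 31 in WT libraries, with medians of 2.5 and 4 (exact permutation p = 0.0755, adjusted p = 0.141). The log2 difference in peak number was -0.67, where the median of all loci was -0.62. An SE at MCL1 was called in 1 library, WT esiCT UNT replicate B, which had 1265 SEs; it spanned 2.29 kb over the downstream element.

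BCL2 (ENSG00000171791, chr18:63123346-63320128, minus strand) had a peak in WT esiCT UNT replicate A only, the longest list. One peak lay at its start site with a fold of 3.6 and one in the gene body with 2.86. BCL2A1 (ENSG00000140379, chr15:79960892-79971196, minus strand) had no peak in any library, where 79% of protein-coding loci had one in some library. In a called-peak list this says that no peak passed the threshold, and in these libraries the lowest fold that could be called at the lowest background was 2.84 to 3.96.

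**Figure D2:**
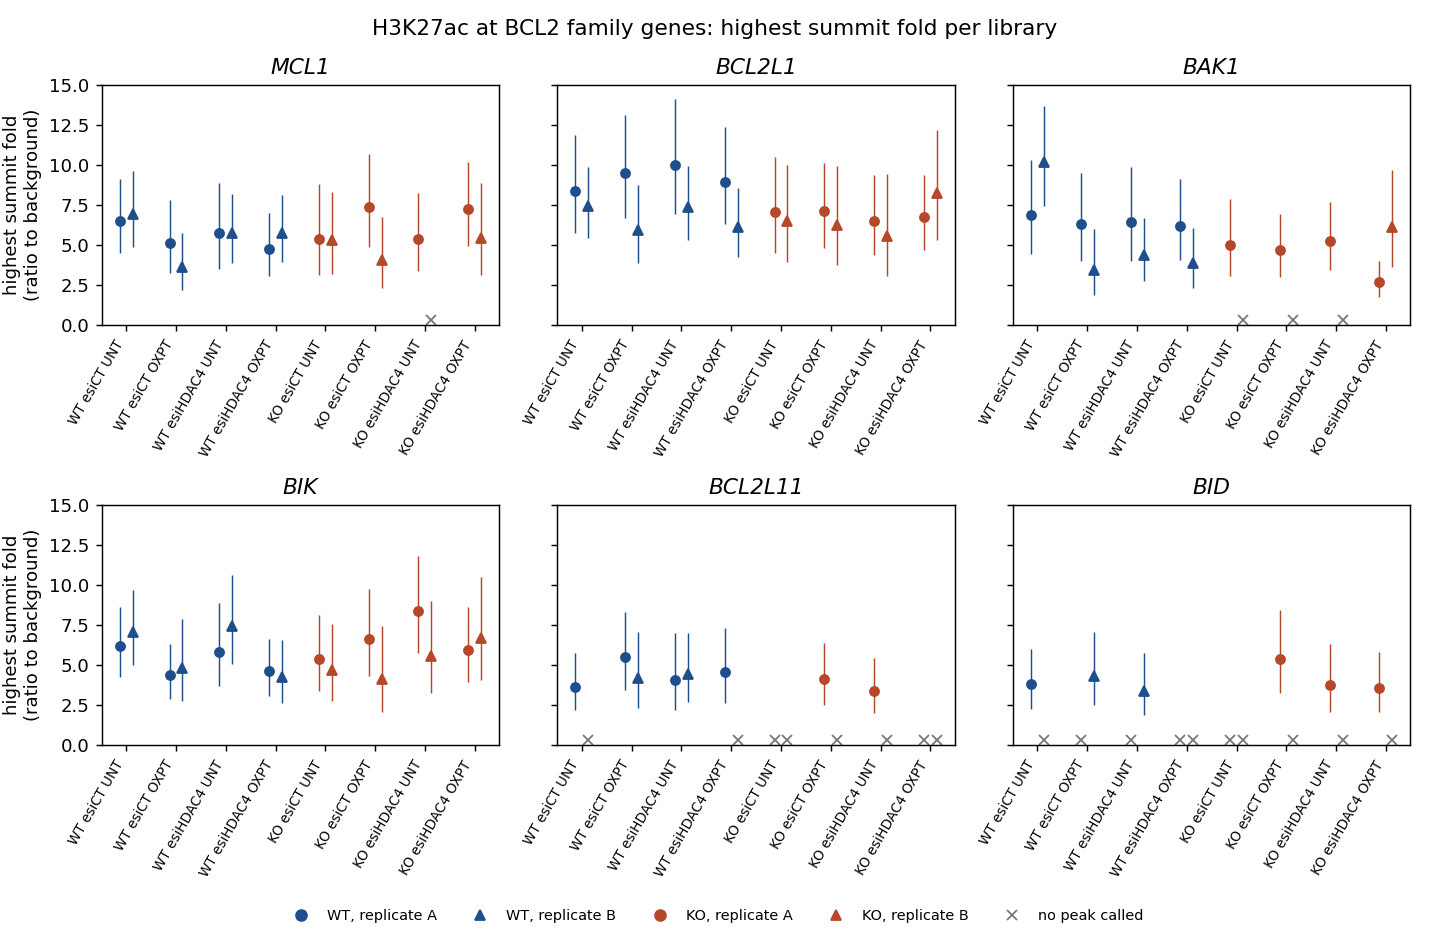
Highest summit fold (ratio of summit pileup to local background, vertical axis) at 6 of the genes in the 8 groups (horizontal axis). Circles are replicate A, triangles replicate B, bars are 95% Poisson intervals of the summit's reads and cover counting error only, and a grey cross marks a library with no peak. BCL2L1 and BIK have a value in every library, and the 3 libraries without a peak at BAK1 are all KO replicate B.

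BAK1 (ENSG00000030110, chr6:33572547-33580293, minus strand), the pore former, had the largest difference between genotypes among the 4 genes with a peak in at least 12 libraries. Its highest summit fold in WT was 6.89 and 10.2 in esiCT UNT, 6.32 and 3.48 in esiCT OXPT, 6.46 and 4.4 in esiHDAC4 UNT, and 6.22 and 3.89 in esiHDAC4 OXPT. In KO it was 5.03 in esiCT UNT, 4.68 in esiCT OXPT and 5.26 in esiHDAC4 UNT for replicate A, with no peak in replicate B of these groups, and 2.7 and 6.11 in esiHDAC4 OXPT. The values overlapped between genotypes. All 8 WT libraries and 5 of 8 KO libraries had a peak (exact permutation p = 0.143, adjusted p = 0.347). The 3 KO libraries without one had 1752 to 8216 peaks and a background of 1.02 to 1.5 reads, and KO esiHDAC4 OXPT replicate B, with 6084 peaks and 1.51 reads, had one.

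The log2 difference of KO against WT at BAK1 was -0.83 ± 0.31, lower in KO in 7 of 8 pairs of same-lettered libraries, with an adjusted p of 0.111 in limma. A library with no peak entered this fit at the lowest fold of its own list. With those libraries left missing the difference was -0.22 (adjusted p = 0.583), and at the lowest fold that could be called it was -0.32 (adjusted p = 0.257). It was -0.51 within letter A, where every library had a peak, and -1.14 within letter B. Without the 2 libraries of lowest background it was -0.52 (adjusted p = 0.54). Over 23 settings the adjusted p ran from 0.0461 to 0.583 and passed 0.05 in 1, without KO esiCT UNT replicate A. That setting called 777 of all 5805 fitted loci.

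Peak number at BAK1 was 7 in KO and 20 in WT libraries, with a median of 1 and 2 per library. Over all 5805 loci the median log2 difference in peak number was -0.62. Of these loci 2589 (44.6%) had an unadjusted exact permutation p under 0.05, all lower in KO. At BAK1 the log2 difference was -0.98 (exact permutation p = 0.00816), which missed the threshold after adjustment over all loci (adjusted p = 0.0554). Leaving out any 1 of 6 libraries brought it to 0.0328 to 0.0481: WT esiCT OXPT replicate B, WT esiHDAC4 UNT replicate A, WT esiHDAC4 OXPT replicate A, KO esiCT OXPT replicate A, KO esiHDAC4 UNT replicate A or KO esiHDAC4 OXPT replicate B. The same omissions called 497 to 1280 of all 5805 loci on peak number. For the WT libraries among them the exact permutation p of BAK1 stayed at 0.00816 and only the adjustment moved. Most of the peaks formed 2 elements. The start-site element at +0.4 kb was called in 7 WT and 4 KO libraries with folds of 2.7 to 6.22. The element at -10.4 kb, at the upstream edge of the window and in the non-coding gene LINC00336, was called in 7 WT and 3 KO libraries with folds of 2.63 to 10.2.

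The BH3-only genes had 3 different arrangements. BIK (ENSG00000100290, chr22:43110750-43129712, plus strand) had a peak in all 16 libraries, and in each the highest one lay in an intron near the end of the gene, the element at +15.9 kb (3.88 to 8.39). Its start site had a peak in 2 libraries, WT esiCT UNT replicate A (4.52) and KO esiHDAC4 UNT replicate A (4.47). The highest summit fold in WT was 6.17 and 7.07 in esiCT UNT, 4.38 and 4.83 in esiCT OXPT, 5.84 and 7.46 in esiHDAC4 UNT, and 4.61 and 4.27 in esiHDAC4 OXPT. In KO it was 5.37 and 4.73, 6.64 and 4.11, 8.39 and 5.6, and 5.98 and 6.72. In WT all 4 UNT libraries lay above all 4 OXPT libraries on this uncentred scale, and in KO they overlapped. The share of all loci with such a split was not counted. After centring, the WT values overlapped as well, at -0.31 to 0.23 in UNT and -0.37 to -0.04 in OXPT. The OXPT libraries of WT esiCT differed from UNT by -0.08 ± 0.43 (adjusted p = 1, limma). In WT esiHDAC4 the centred means were 0.06 in UNT and -0.32 in OXPT, and this difference was not tested. The log2 difference of KO against WT was 0.20 ± 0.21 (adjusted p = 0.528, limma).

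BCL2L11 (ENSG00000153094, chr2:111119378-111168444, plus strand) had peaks at its start site in 8 libraries, 6 of 8 WT and 2 of 8 KO. The highest folds in WT were 3.66 with no peak in replicate B in esiCT UNT, 5.5 and 4.18 in esiCT OXPT, 4.06 and 4.48 in esiHDAC4 UNT, and 4.55 with no peak in replicate B in esiHDAC4 OXPT. The KO values were 4.11 in esiCT OXPT replicate A and 3.39 in esiHDAC4 UNT replicate A. The share of libraries with a peak gave an exact permutation p of 0.0918 and an adjusted p of 0.347. A peak on the upstream side, at -0.6 kb, was called in 4 libraries, all WT, with folds of 3.26 to 4.06, and this was not tested. How often peaks at other loci were called in WT only was not counted. Over the 11069 loci tested on peak presence, the median difference of KO against WT was -0.38. Of the 1627 loci with an unadjusted exact permutation p under 0.05, 1623 were lower in KO. The window of this gene overlaps ACOXL, whose starts lie outside it.

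BID (ENSG00000015475, chr22:17734138-17774770, minus strand) had a peak at its start site in 6 libraries, 3 WT and 3 KO. The folds were 3.81 in WT esiCT UNT replicate A, 4.35 in WT esiCT OXPT replicate B, 3.4 in WT esiHDAC4 UNT replicate B, 5.37 in KO esiCT OXPT replicate A, 3.74 in KO esiHDAC4 UNT replicate A and 3.59 in KO esiHDAC4 OXPT replicate A. The window overlaps BCL2L13, whose starts lie outside it. Calls were also equal between OXPT and UNT and between esiHDAC4 and esiCT, at 3 of 8 on each side.

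**Figure D3:**
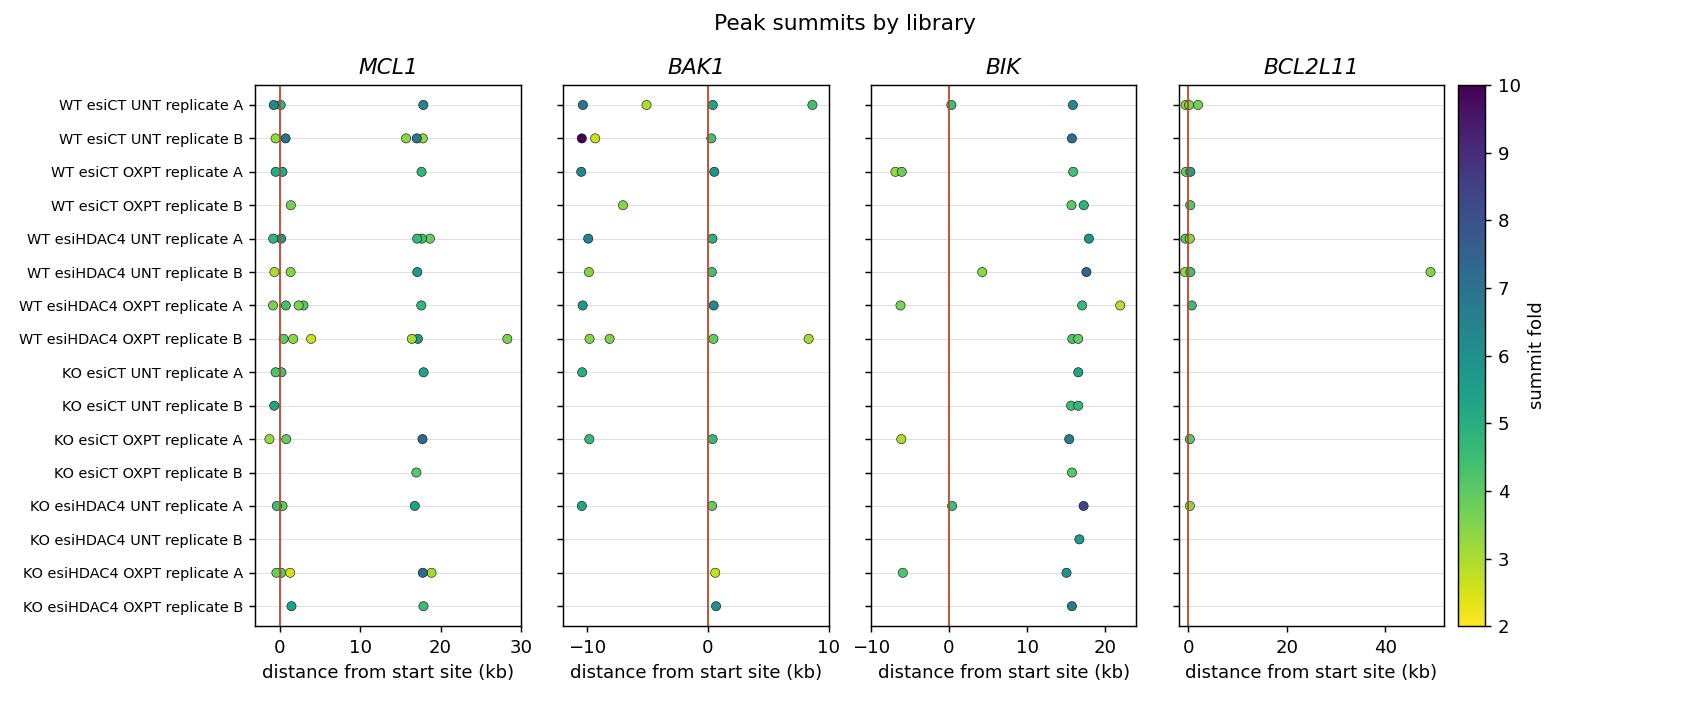
Summits of peaks at MCL1, BAK1, BIK and BCL2L11 by distance from the canonical start site along the gene (kb, horizontal axis) in the 16 libraries (vertical axis), coloured by summit fold. The vertical line is the start site. Peaks gather at +17.6 kb of MCL1, -10.4 kb of BAK1 and +15.9 kb of BIK, and those of BCL2L11 gather at its start.

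The comparison of genotypes asked whether loss of FBXW7 moved acetylation at these loci. Of the 5805 loci fitted on summit fold 0% were called in each of the 8 comparisons, and none of the 4 fitted members was. Without adjustment 1682 loci (29%) had p under 0.05 for KO against WT in limma, 1670 of them lower in KO, and the exact permutation test of the same values called 285 after adjustment, none of them a member. The median difference of all loci was -0.39 on the log2 scale after centring. Of the members, BAK1 had an unadjusted p under 0.05. Relative to that median, MCL1 (-0.08), BCL2L1 (-0.12) and BIK (0.20) lay above it and BAK1 (-0.83) below. Centring used the loci with a peak in every library, BCL2L1 and BIK among them. At the other loci, uncalled libraries entered at the lowest fold of their list. MCL1 had a peak in 15 libraries and BAK1 in 13, and the part of such calls in this order was not tested. On peak presence 0% of 11069 loci were called in each comparison, with 1627 of them under an unadjusted p of 0.05 for KO against WT by the exact permutation test. On SE presence 0% of 739 loci were called, with 47 under an unadjusted p of 0.05 in that test, and no member met its range of libraries. On peak number 10.1% of 5805 loci were called for KO against WT, all lower in KO, and none of the 4 members. That count ran from 0 to 1280 when single libraries were left out and was 0 without WT esiCT UNT replicate B, WT esiHDAC4 UNT replicate B, WT esiHDAC4 OXPT replicate B or KO esiHDAC4 UNT replicate B.

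**Figure D4:**
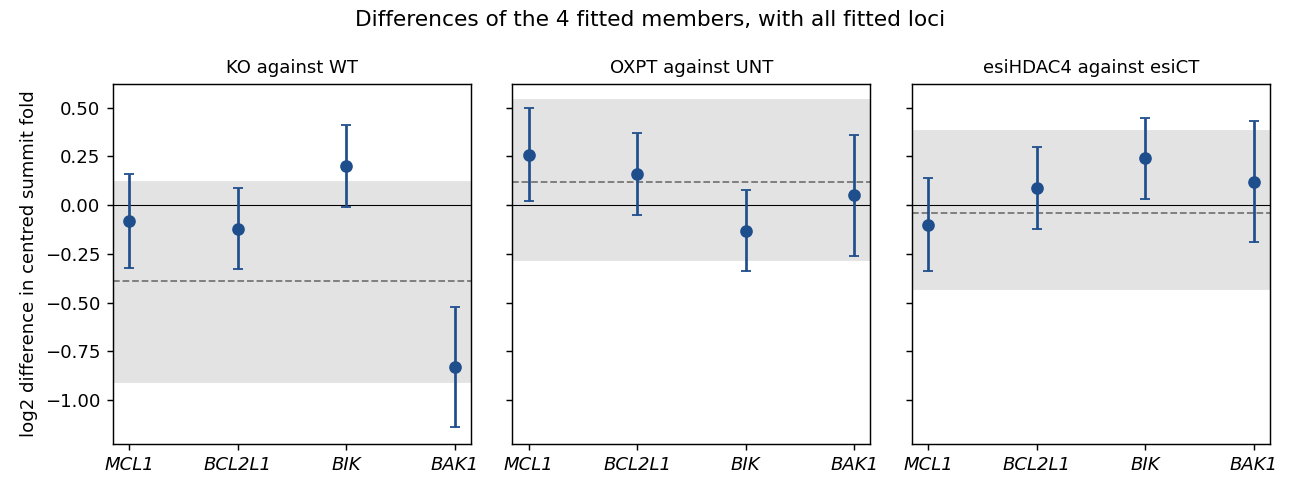
Log2 difference in centred summit fold (vertical axis) of MCL1, BCL2L1, BIK and BAK1 in the 3 comparisons over 8 libraries against 8. Points are limma estimates with bars of 1 standard error, the dashed line is the median of all 5805 fitted loci and the grey band spans their 5th to 95th percentile. BAK1 in KO against WT has the lowest value, -0.83, inside the band that reaches -0.91.

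OXPT against UNT asked for a response to the drug. The log2 differences were 0.26 ± 0.24 for MCL1, 0.16 ± 0.21 for BCL2L1, -0.13 ± 0.21 for BIK and 0.05 ± 0.31 for BAK1, each with an adjusted p of 1 in limma, and the median of all loci was 0.12. Over all loci 292 had an unadjusted p under 0.05 in limma, and the exact permutation test called 0. MCL1, BCL2L1 and BAK1 were higher in OXPT in 5 of 8 pairs each and BIK in 2. Within esiCT cells the OXPT differences in WT were -0.19 ± 0.48 for MCL1, 0.37 ± 0.42 for BCL2L1 and -0.40 ± 0.63 for BAK1. In KO they were -0.05 ± 0.48, -0.10 ± 0.42 and -0.07 ± 0.63. The responses of the genotypes differed by 0.14 ± 0.68, -0.47 ± 0.60 and 0.33 ± 0.89, with an adjusted p of 1 for each in limma, and by 0.05 ± 0.60 for BIK.

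Silencing of HDAC4 asked whether less of this protein went with a change in acetylation in either direction. The study describes its class as acetyl-lysine readers without catalytic activity, and reports regions of both lower and higher acetylation after HDAC4 knockdown. Against esiCT the log2 differences were -0.10 ± 0.24 for MCL1, 0.09 ± 0.21 for BCL2L1, 0.24 ± 0.21 for BIK and 0.12 ± 0.31 for BAK1 (adjusted p = 1 for each, limma), and the median of all loci was -0.04. Over all loci 120 had an unadjusted p under 0.05 in limma, and the exact permutation test called 0. BIK was higher in esiHDAC4 in 7 of 8 pairs. In OXPT-treated KO cells the 4 differences were 0.35 ± 0.48, 0.32 ± 0.42, 0.44 ± 0.43 and 0.81 ± 0.63, with adjusted p-values of 1, 0.994, 0.796 and 0.671 in limma. In OXPT-treated WT cells they were 0.21 ± 0.48, -0.08 ± 0.42, -0.11 ± 0.43 and 0.01 ± 0.63. With 2 libraries a group these single comparisons could not have shown a modest difference. In simulated data a log2 change of 1 was recovered at 0% of changed loci in both, and a change of 2 at 17.5% in KO and 12.5% in WT cells, against 24% and 96.5% for esiHDAC4 against esiCT over all libraries.

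Among 28 other genes of the family and of mitochondrial apoptosis, 14 could be fitted and 0 were called on summit fold in any comparison. For KO against WT 1 of the 14 was higher, where 10.9% of all loci were. It was BAX (0.07 ± 0.21), the other main pore former. BAX had a peak in all 16 libraries and so was among the loci used for centring. Their median of -0.39 equalled that of all loci, and the lowest was BCL2L2 (-0.87 ± 0.31, adjusted p = 0.0953, limma), the gene of the survival protein BCL-W. On peak number 1 of the 14 was called for KO against WT, a share below the 10.1% of all loci. It was BCL2L2, with a median of 1 peak in KO and 3 in WT libraries (exact permutation p = 0.00204, adjusted p = 0.0405). That call was lost with no replicate block, and without any 1 of the 4 libraries that brought the peak number count of all loci to 0. For OXPT against UNT 12 of 14 were higher, where 69.4% of all loci were, with a median of 0.22. The highest was BBC3 (0.50 ± 0.26, adjusted p = 0.988, limma), which encodes the p53-induced BH3-only protein PUMA, and the lowest was BNIP3L (-0.25 ± 0.27). For esiHDAC4 against esiCT 7 of 14 were higher, where 41.9% of all loci were. They ran from CYCS (-0.60 ± 0.28), which encodes cytochrome c, to BCL2L12 (0.34 ± 0.26). SEs overlapped BAD in 3 libraries and BBC3, PMAIP1 and BNIP3L in 2 each, fewer than the 15 at BCL2L1. BCL2L10 and AIFM1 had no peak.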

How the data were processed

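H3K27ac was profiled by ChIP-seq in 16 HCT-116 libraries (8 groups of 2), and 4 input samples were not analysed here. Per the labels and the study's methods, Trimmomatic 0.39 was used by the authors for trimming and Bowtie2 2.4.4 for alignment to hg38. They then removed duplicates with SAMtools 1.18, called peaks per library with MACS2 2.2.7.1 and called super-enhancers with ROSE. The sources used here do not say whether the deposited super-enhancer lists had passed the authors' H3K4me1 filter. The authors deposited peak lists whose columns hold the fold at the summit (a ratio to local background with a pseudocount of 1), −log10 p, −log10 q and a score derived from the latter. The deposited super-enhancer lists hold positions only. Of 272083 deposited peaks, 271550 on the main chromosomes were used. Reads at each summit were solved from fold and −log10 p, and at least 99.49% of peaks per library gave a whole number within 0.01. Read totals were not given in these files, so depth is known only through the local background.

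Windows were GENCODE v44 gene bodies ± 10 kb, and a start-site peak lay within 1 kb of an annotated start. The log2 of the highest fold per locus was centred on each library's median over 484 loci called in all libraries. Loci with a peak in at least 12 libraries were fitted in limma 3.58.1 (R 4.3.3) with the replicate letter and the 8 groups, as the study's own design has it. A library without a peak entered at the lowest fold of its list. Peak presence (3 to 13 libraries) and log2(peak number + 1) were tested by two-sided exact permutation within letters (4900 arrangements, smallest p 0.000408). Benjamini-Hochberg adjustment covered all loci tested, at 0.05. Deviations of same-lettered libraries from their group means correlated at -0.0104 to 0.314, with a median of 0.0769 (13 of 28 pairs over 0.1). Same-lettered libraries thus shared a weak part of their deviations. Whether this comes from paired experiments or from depth was not tested. The letter stayed in the fits and permutations because the study's design has it, and results without it are in the closing section. Fits were tested on simulated data. The members and gene lists were chosen with earlier results of these data known. All 8 members are named. Of 28 other apoptosis genes fixed as a list, those past a test and the highest and lowest per comparison are named. Alternatives covered centring, thresholds, windows, list length, the block and single libraries, and 2 were added after seeing the data.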

Additional observations from a re-analysis of the deposited data

Results flagged for a closer look

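In 9 of 72 comparisons of an effect between 2 groups of pairs, both pairs of one group moved one way and both of the other the opposite way. With 2 pairs a group, signs alone can readily fall this way without any effect. The share of all loci with this pattern was not counted, so the 9 are descriptions only. Except where a test is named, the difference was not tested. All values are log2 differences in centred summit fold, replicates A then B.

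At BCL2L1, OXPT against UNT in esiCT cells was 0.61 and 0.13 in WT and -0.07 and -0.13 in KO, a difference of -0.47 that was tested and had an adjusted p of 1 in limma. KO against WT in UNT cells was 0.13 and 0.14 with esiCT and -0.61 and -0.06 with esiHDAC4, a difference of -0.47. KO against WT in esiCT cells was 0.13 and 0.14 in UNT and -0.55 and -0.12 in OXPT, also a difference of -0.47. In KO cells OXPT against UNT was -0.07 and -0.13 with esiCT and 0.31 and 0.47 with esiHDAC4, a difference of 0.49.

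For esiHDAC4 against esiCT at BCL2L1, UNT cells gave 0.53 and 0.08 in WT and -0.22 and -0.12 in KO, a difference of -0.47. OXPT-treated cells gave -0.06 and -0.10 in WT and 0.17 and 0.48 in KO, a difference of 0.40. Set out by treatment, the same values differed by -0.38 between OXPT and UNT in WT and by 0.49 in KO. These comparisons share libraries and are not independent of each other.

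At MCL1, esiHDAC4 against esiCT in KO cells was -0.10 and -1.69 in UNT and 0.22 and 0.49 in OXPT, a difference of 1.25. The value of -1.69 comes from KO esiHDAC4 UNT replicate B, the library with 1752 peaks and none at MCL1.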

How the results depend on the processing

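Of 411 alternative values for the counts of members called, 404 equalled the reported 0. The other 7 came from leaving out single libraries, where the count ranged from 0 to 1 for KO against WT on summit fold and from 0 to 1 on peak number, and the member called was BAK1 each time. The same omissions also called 777 of all loci on summit fold and 497 to 1280 on peak number. With no replicate block the members called numbered 0 in every comparison, BAK1 had an adjusted p of 0.246 on fold (limma) and 0.0984 on peak number (exact permutation), and the 588 loci called on peak number became 0. Among all loci, KO against WT on fold gave 0 calls as reported, 660 without centring, 777 without KO esiCT UNT replicate A and 1305 with loci seen in at least 4 libraries, so the background of 0% depends on these settings. Of 824 alternative values for 32 differences of members, 71 changed sign, in 24 differences, and none of these passed the threshold. At MCL1, KO against WT was -0.63 from start-site peaks only (adjusted p = 0.128, limma). Peaks with −log10 q of at least 10 were too few to fit folds, so that setting was not run. List length and background differed between genotypes and were lowest in the KO lists of letter B. Peaks at this depth that were missed therefore cannot be told from peaks that were absent.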

Other observations

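Over the 16 libraries, the loci whose centred summit fold varied most like that of BCL2L1 were RCC1 (Pearson r = 0.69) and PHACTR4 (0.68), out of 483 loci with a peak in every library. Those most like BIK were ONECUT3 (0.73) and SPESP1 (0.70), out of 482. The median r was -0.04 for BCL2L1 and -0.02 for BIK. These are descriptions over libraries that share depth and background, and no p-value is attached.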
